A study of Mus musculus with 12 samples.

Results

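Type I interferon stimulated genes were read here as a set of 38 members named by symbol, out of 24499 gene symbols counted in the series. All 38 were in the count table, and all 38 passed the filter on low counts, which left 10714 genes for testing. By role, 29 members are effectors, 5 are sensors of foreign or misplaced nucleic acid and 4 are regulators of the response. The members were chosen by name, with earlier results of these data known, so their counts are a description of the set and no test of it.

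The data came from CD11c-enriched cells of lymph nodes draining a tumour. Wildtype C57BL6 mice and APOE-KO mice, which lack the lipid carrier apolipoprotein E, had both received E0771-cOC tumours by injection, where E0771 names a mammary carcinoma of the mouse, and node removal followed on day 9. Both groups therefore carried the tumour, and there is no group without it. The node cells were digested with collagenase and DNase and held on magnetic beads against CD11c, the integrin Itgax that marks dendritic cells and some macrophages. RNA was sequenced from the 3' end in 12 libraries, 6 wildtype and 6 APOE-KO. Age and sex are not given in the labels, nor how the allele was made, nor whether each library is 1 animal, so the p-values measure the spread between these libraries, which may be technical.

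Type I interferons are secreted proteins that bind the receptor Ifnar1/Ifnar2. The receptor's kinases Jak1 and Tyk2 activate Stat2, which acts with Irf9 in a complex that binds the interferon stimulated response element in the promoters of many target genes. The products of those genes block viral replication at many steps, detect viral RNA and DNA, and feed back on the signal. In lymph nodes, plasmacytoid dendritic cells are known as strong producers of type I interferon, and the same genes in conventional dendritic cells accompany their capacity to prime T cells.

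The libraries held between 2381477 and 4898360 counts, and the 45S ribosomal RNA gene Rn45s took 2.71% to 32.2% of them. Levels are given as CPM, reads per 1000000 of the scaled library size and not divided by gene length. Apoe itself stood at 481 ± 45.7 CPM in wildtype against 5.81 ± 2.95 CPM in APOE-KO (mean ± SD, n = 6 each, here and below). Dendritic cell genes were present in every library, with Itgax between 201 and 365 CPM, and the summed level of 14 dendritic cell markers ran from 11852 to 16338 CPM in wildtype and from 12916 to 15292 CPM in APOE-KO. Markers of B cells (569 to 936 CPM summed over 8 genes), T cells (467 to 584 CPM over 8) and macrophages (875 to 1331 CPM over 11) were also present, so the libraries were not of dendritic cells alone. Among those lists Sirpa, Ccr7 and C1qb rose and Fcer2a, Marco, Timd4 and Mrc1 fell, by the test given below. In such a mixture fewer cells of a type and less RNA per cell cannot be told apart.

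The promoters below are shown because they belong to members that rose in APOE-KO. They were read from RefSeq (GRCm38.p6), where 27 of the 38 members matched. Each is written from 5' to 3' on the strand of its gene, and those of Ifit3 and Oasl2 end just before the transcription start. Capitals mark the response element core GAAANNGAAA, on either strand, so that TTTC marks the core on the other strand. Bases that an annotated exon covers were left out, which for Irf7 took away the 57 bases nearest the start.

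Ifit3, chr19:34583279-34583528, plus strand: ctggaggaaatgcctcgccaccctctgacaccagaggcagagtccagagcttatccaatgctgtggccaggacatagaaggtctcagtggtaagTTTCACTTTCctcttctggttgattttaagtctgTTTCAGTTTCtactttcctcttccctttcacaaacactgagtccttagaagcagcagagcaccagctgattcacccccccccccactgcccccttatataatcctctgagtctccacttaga

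Irf7, chr7:141266482-141266674, minus strand: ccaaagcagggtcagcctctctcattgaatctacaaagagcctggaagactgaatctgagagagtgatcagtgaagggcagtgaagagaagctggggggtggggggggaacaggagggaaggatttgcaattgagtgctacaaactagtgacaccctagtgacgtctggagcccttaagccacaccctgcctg

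Oasl2, chr5:114896684-114896933, plus strand: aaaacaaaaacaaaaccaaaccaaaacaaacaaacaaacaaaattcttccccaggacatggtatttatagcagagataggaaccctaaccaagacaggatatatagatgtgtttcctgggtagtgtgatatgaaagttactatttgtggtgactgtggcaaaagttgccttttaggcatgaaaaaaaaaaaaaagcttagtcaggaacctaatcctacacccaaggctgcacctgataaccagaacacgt

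The Ifit3 window held 2 cores, starting 156 and 122 bases upstream of the start site. The Irf7 and Oasl2 windows held none, which says only that these letters are not in these bases. Within the 250 bases upstream, the core was found in 12 of the 27 matched members (44.4%) and in 936 of all 27025 genes with a promoter in the table (3.46%). For contrast, the core TTCNNNGAA, known from promoters that respond to interferon gamma, was found in 5 of 27 members (18.5%) and in 8.13% of all genes. Among members with an unadjusted p under 0.05 in the genotype test, 6 of 13 held the response element core, and among the others 6 of 14. Of those 6 members, Slfn5 is not printed. The cores of the other 5, of which Ifit3 alone rose, are given with 4 bases on each side, in the GAAA orientation. The sites were found by these letters, so their likeness within the capitals was fixed in advance and shows nothing. The choice of these 5 was made after their values were seen.

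Ifit3, chr19:34583369-34583386, minus strand: agagGAAAGTGAAActta

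Ifit3, chr19:34583403-34583420, minus strand: agtaGAAACTGAAAcaga

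Rsad2, chr12:26456559-26456576, plus strand: ttctGAAAATGAAAgttg

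Cxcl10, chr5:92349089-92349106, minus strand: tttgGAAAGTGAAActta

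Ifit1, chr19:34640781-34640798, minus strand: actgGAAAGTGAAActga

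Ifit1, chr19:34640800-34640817, minus strand: gtgaGAAACTGAAActga

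Isg15, chr4:156200871-156200900, minus strand: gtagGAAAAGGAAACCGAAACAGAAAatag

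The Isg15 site is a run of 3 overlapping cores, while Ifit3 and Ifit1 each carry a pair of separate ones.

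Interferon stimulated genes stood higher in APOE-KO than in wildtype in 36 of 38 members (35 with RLE size factors, where Isg20 was just below 0), and 5 of them rose: the effectors Ifit3, Rtp4, Ifi27l2a and Oasl2 and the regulator Irf7. None fell. A rise means an adjusted p under 0.05 in edgeR's quasi-likelihood test, with Benjamini-Hochberg adjustment over all 10714 genes. By that rule 1.08% of all tested genes rose and 0.411% fell, against 13.2% of the members that rose. At an unadjusted p under 0.05, 21 members were higher and 0 lower, where 6.27% and 5.81% of all genes were. The median log2 fold change (APOE-KO over wildtype) was 0.58 over the members and -0.02 over all tested genes, and 47.2% of all genes had a positive value. Fold changes at least 2-fold were fitted for 7 members, Xaf1, Ifit3, Oasl2, Oasl1, Ifi204, Ifit1 and Oas2. The range ran from -0.17 for Samd9l to 1.37 for Xaf1.

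**Figure D1:**
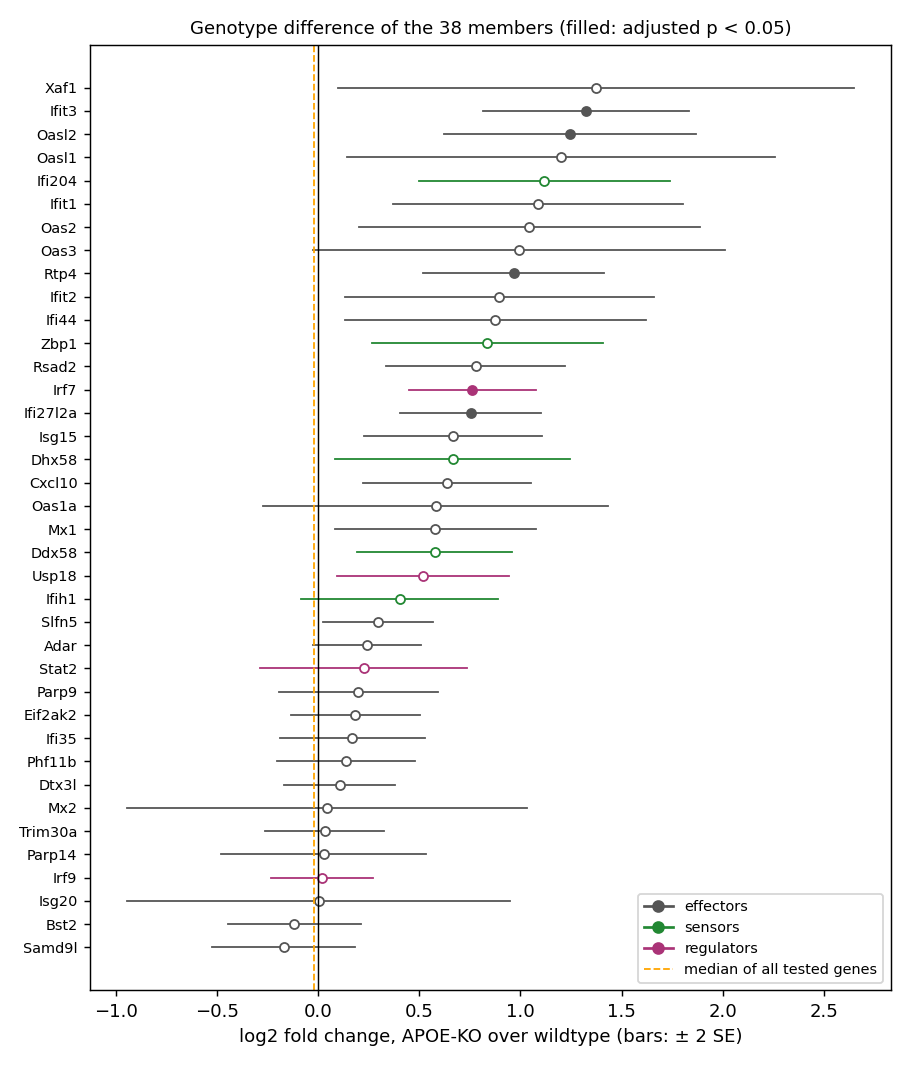
Log2 fold change (APOE-KO over wildtype, horizontal axis) of each of the 38 members, with bars of 2 SE either way, coloured by role; filled points have an adjusted p under 0.05 and the dashed line is the median of all tested genes. The 5 filled points lie between 0.75 and 1.32, and only Bst2 and Samd9l lie below 0.

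Among effectors, the IFIT proteins, of which Ifit1 binds viral RNA lacking the cell's own cap methylation, were all higher in APOE-KO. Ifit3 lies on chromosome 19 from 34583531 to 34588731 (GRCm38, plus strand) beside Ifit2 and Ifit1. Its lowest, median and highest levels were 7.35, 11.3 and 13.2 CPM in wildtype and 19.1, 26.0 and 39.0 CPM in APOE-KO. Every APOE-KO library lay above every wildtype library, which held for 2 of the 38 members (Ifit3 and Rtp4) and, in this direction, for 1.23% of all tested genes (0.541% in the other). The rise of Ifit3 was 2.50-fold (log2 fold change 1.32 ± 0.26 SE, adjusted p = 0.00522) and rested on 229 and 608 reads. Of the 50-base words in the last 500 bases of its transcript, 14.9% also occur in its copy Ifit3b, so some of its reads may be shared.

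Ifit1 had 3.85, 7.58 and 10.8 CPM (lowest, median, highest) in wildtype and 3.96, 16.7 and 21.0 CPM in APOE-KO. APOE-KO library 2 alone lay within the wildtype range, the other 5 stood at 16.0 CPM or more, and the adjusted p was 0.164. Without that library Ifit1 passed (adjusted p = 0.0298, log2 fold change 1.28). Ifit2 went from 9.81 ± 2.89 to 18.2 ± 12.0 CPM (adjusted p = 0.331), with APOE-KO libraries 1, 2 and 6 at 4.94 to 11.0 CPM and libraries 3, 4 and 5 at 23.9 to 36.1 CPM. The 3 neighbouring genes thus had log2 fold changes of 0.90 to 1.32, and 1 of them passed.

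The OAS family holds the synthases of 2'-5' oligoadenylate and proteins that resemble them. That oligoadenylate is the messenger that switches on the RNA-cutting enzyme RNase L. Oasl2, a member of the family with ubiquitin-like repeats, is on chromosome 5 from 114896936 to 114912234 (plus strand). Its levels were 6.79, 10.6 and 16.2 CPM in wildtype and 12.9, 19.5 and 41.3 CPM in APOE-KO, a 2.37-fold rise (log2 fold change 1.25 ± 0.31 SE, adjusted p = 0.0391). APOE-KO libraries 5 and 6 stood apart at 39.3 and 41.3 CPM, the other 4 lay between 12.9 and 19.9 CPM, and the groups overlapped. The call ended without any one of wildtype libraries 2, 3, 4 or 5 or APOE-KO libraries 3, 5 or 6 (adjusted p up to 0.156).

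Oas2 had 1.57, 4.42 and 5.95 CPM in wildtype and 5.93, 8.28 and 13.97 CPM in APOE-KO (adjusted p = 0.299), with APOE-KO library 6 just inside the wildtype range. Oasl1, Oas3 and Oas1a had log2 fold changes of 1.20, 0.99 and 0.58 and adjusted p of 0.354, 0.446 and 0.644. All 5 family members were on the positive side, from 87 to 598 reads per genotype, and 1 passed. For Oas1a 56.1% of the 50-base words at its end are shared with Oas1g, so its level is uncertain.

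Proteins that act at membranes gave 2 of the 5 rises. Rtp4, a chaperone of cell-surface receptors on chromosome 16 from 23520291 to 23614222 (plus strand), had 10.6, 20.0 and 20.4 CPM in wildtype and 22.7, 33.7 and 46.2 CPM in APOE-KO. The groups did not overlap, and the rise was 1.95-fold (log2 fold change 0.97 ± 0.22 SE, adjusted p = 0.0226). Wildtype libraries 1 and 5 were the low ones at 10.6 and 13.1 CPM, and the call ended when wildtype library 5, APOE-KO library 3 or APOE-KO library 6 was left out (adjusted p up to 0.0882). An exon of Rtp4 overlaps the gene model Gm45338 on the same strand, so its reads are uncertain in part.

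Ifi27l2a, a small mitochondrial and nuclear membrane protein on chromosome 12 from 103442167 to 103443680 (minus strand), had 46.4, 87.0 and 109 CPM in wildtype and 103, 143 and 170 CPM in APOE-KO. It rose 1.69-fold (log2 fold change 0.75 ± 0.17 SE, adjusted p = 0.0228). Wildtype library 6 at 109 CPM was above APOE-KO library 4 at 103 CPM, the only crossing between the groups. It did not pass when wildtype library 4 or APOE-KO library 1, 3 or 6 was left out (adjusted p up to 0.0796).

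Rsad2, which encodes viperin, an enzyme that makes a chain-terminating nucleotide, had 30.6, 49.8 and 72.3 CPM in wildtype and 44.8, 86.5 and 127 CPM in APOE-KO (1.72-fold, adjusted p = 0.085). APOE-KO library 2, at 44.8 CPM, was below the wildtype median, and the other 5 lay above all wildtype libraries. Rsad2 passed without that library, without wildtype library 2 or without wildtype library 3 (adjusted p from 0.0213), and also with no filter (0.00995) and with DESeq2 (0.0438). Bst2, or tetherin, which holds budding virus at the cell surface, had 404 ± 134 CPM in wildtype against 372 ± 54.2 CPM in APOE-KO, a log2 fold change of -0.12 ± 0.16 SE (adjusted p = 0.848). Wildtype library 1 held 662 CPM of Bst2 and the other 5 held 272 to 387 CPM. Bst2 is also a surface marker of plasmacytoid dendritic cells, and wildtype library 1 had the highest summed level of the other 14 plasmacytoid markers, 6012 CPM against 2996 to 3702 CPM in the other wildtype libraries. With that library left out, Bst2 had a log2 fold change of 0.077. A link between its Bst2 level and its plasmacytoid markers was not tested. Cell number and RNA per cell cannot be told apart in such a mixture.

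Isg15, the ubiquitin-like modifier attached to proteins during the response, had 27.5, 31.4 and 57.7 CPM in wildtype and 40.9, 52.8 and 89.5 CPM in APOE-KO. Its 1.59-fold difference did not pass (log2 fold change 0.67 ± 0.22 SE, adjusted p = 0.165). Wildtype libraries 2 and 4 stood at 57.7 and 46.2 CPM, inside the APOE-KO range, and the other 4 lay below all APOE-KO libraries. Cxcl10, a chemokine that draws activated T cells, had 21.8, 52.1 and 62.4 CPM in wildtype and 59.1, 68.2 and 107 CPM in APOE-KO (adjusted p = 0.157). Wildtype library 6, at 62.4 CPM, was the single wildtype library above the lowest APOE-KO libraries.

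**Figure D2:**
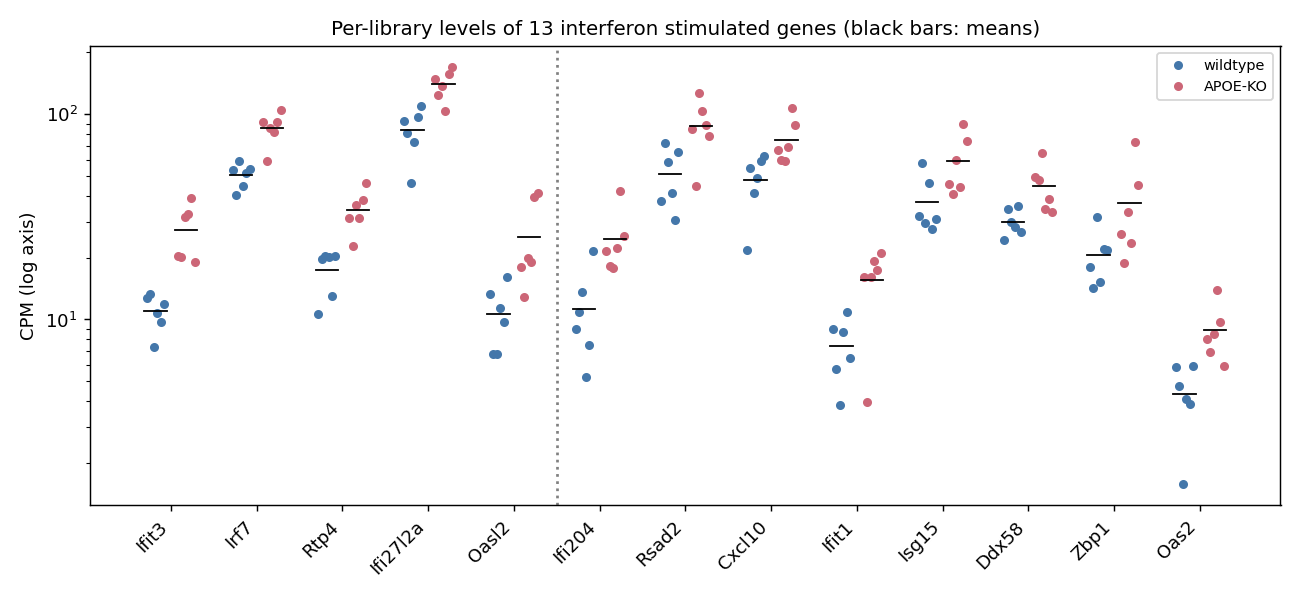
Level of the 13 members with the smallest p in each library (CPM, log axis), wildtype in blue and APOE-KO in red, with black bars at the means; the 5 left of the dotted line have an adjusted p under 0.05. Ifit3 and Rtp4 are the members whose groups do not overlap, and APOE-KO library 2 is the low red point of Ifit1 at 3.96 CPM.

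No other effector passed. Mx1, of the Mx GTPase family, went from 23.9 ± 10.4 to 35.2 ± 5.70 CPM (adjusted p = 0.335), while Mx2, annotated as a polymorphic pseudogene, stood at 5.84 ± 2.54 and 6.00 ± 3.30 CPM (adjusted p = 0.99). Ifi44 and Xaf1, a promoter of cell death, had log2 fold changes of 0.88 and 1.37 (adjusted p = 0.331 and 0.386). For Xaf1 the counts were 57 and 168 reads and the SE was 0.64, so its large fold was poorly measured. Slfn5, of the Schlafen family, had 128 ± 19.1 and 157 ± 20.9 CPM (adjusted p = 0.381).

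Values nearer 0 were fitted for several effectors. Adar, which changes adenosine to inosine in RNA, had a log2 fold change of 0.24 ± 0.13 SE, and Eif2ak2, the kinase PKR that stops translation, 0.18 ± 0.16 SE (adjusted p = 0.491 and 0.717). The exonuclease Isg20 had 4.02 ± 2.06 and 3.97 ± 0.91 CPM. The complex of the ADP-ribosyltransferase Parp9 with the ubiquitin ligase Dtx3l, which are neighbours on chromosome 16 together with Parp14, had log2 fold changes of 0.20 and 0.11, and Parp14 had 0.03 (adjusted p = 0.765, 0.83 and 0.986). Trim30a, Ifi35, Phf11b and Samd9l had values between -0.17 and 0.17 (adjusted p from 0.78 to 0.966), and 42.6% of the end of Phf11b is shared with its copies. Within 2 SE, the data allow Dtx3l a log2 fold change from -0.17 to 0.38 and Trim30a one from -0.26 to 0.33.

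All 5 sensors were higher in APOE-KO, and none passed in the fit over all 12 libraries with the filter on low counts. Ifi204, a detector of DNA, had 5.23, 9.95 and 21.5 CPM in wildtype and 17.8, 21.9 and 42.3 CPM in APOE-KO (2.17-fold, adjusted p = 0.0754). APOE-KO library 5 stood above the other APOE-KO libraries, and wildtype library 6 alone, at 21.5 CPM, reached the APOE-KO range. The call of Ifi204 depended on the fit: it passed with no filter (adjusted p = 0.0289), with DESeq2 (0.0386), and when wildtype library 3 (0.0488) or wildtype library 6 (0.0194) was left out. Ddx58, which encodes the RNA sensor RIG-I, had 24.4, 29.0 and 35.6 CPM in wildtype and 33.3, 43.3 and 64.8 CPM in APOE-KO (1.49-fold, adjusted p = 0.168), and APOE-KO libraries 4 and 6 lay inside the wildtype range. Zbp1, a sensor of left-handed nucleic acid that can start cell death, had 14.3, 19.9 and 31.7 CPM in wildtype and 18.8, 29.8 and 73.6 CPM in APOE-KO (adjusted p = 0.178). Its APOE-KO libraries 5 and 6 were high at 73.6 and 45.3 CPM, and the other 4 lay at 18.8 to 33.5 CPM. Dhx58 and Ifih1, relatives of RIG-I (LGP2 and MDA5), had log2 fold changes of 0.67 ± 0.29 and 0.40 ± 0.24 SE (adjusted p = 0.348 and 0.541).

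Of the regulators, Irf7 rose. Irf7, the transcription factor that amplifies type I interferon production, lies on chromosome 7 from 141262706 to 141266481 (minus strand). It had 40.4, 52.6 and 59.3 CPM in wildtype and 59.0, 88.5 and 105 CPM in APOE-KO, a 1.70-fold rise (log2 fold change 0.76 ± 0.16 SE, adjusted p = 0.00989). APOE-KO library 2, at 59.0 CPM, and wildtype library 3, at 59.3 CPM, were the only crossing, and the other 5 APOE-KO libraries lay at 81.7 CPM or above. An exon of Phrf1 on the other strand overlaps Irf7, and nothing in the labels says whether counting used strand, so their reads may be mixed.

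Usp18, the protease that removes Isg15 from proteins and dampens the receptor, had 28.9 ± 8.78 and 41.9 ± 10.4 CPM, with a log2 fold change of 0.52 ± 0.21 SE (adjusted p = 0.308). The subunits of the transcription complex did not pass, with Stat2 at 35.2 ± 13.2 and 40.7 ± 11.0 CPM (adjusted p = 0.807) and Irf9 at 125 ± 12.3 and 127 ± 12.7 CPM (adjusted p = 0.979). For Irf9 the interval of 2 SE ran from -0.23 to 0.27. An exon of Irf9 overlaps Rnf31 on the same strand, so its reads are uncertain in part.

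Set side by side, effectors had a median log2 fold change of 0.58 (29 members, 4 rose, 15 higher at an unadjusted p under 0.05). Sensors and regulators together had 0.58 (9 members, 1 rose, 6 higher at that p). Sensors alone had 0.67 and regulators 0.37. The values ran from -0.17 to 1.37 for effectors and from 0.02 to 1.12 for sensors and regulators. No test between the roles was made.

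By level, the 19 members with the lower mean CPM over all libraries (3.99 to 35.4 CPM) had a median log2 fold change of 0.90, and 14 of them had an unadjusted p under 0.05. The 19 with the higher mean (37.3 to 388 CPM) had a median of 0.20 and 7 such members, Isg15, Irf7, Rsad2, Ifi27l2a, Cxcl10, Ddx58 and Slfn5. Rises numbered 3 and 2. The lower-level members were also measured less precisely, with a median SE of 0.36 against 0.17. No test of this difference was made. All tested genes were not split by level, so no share for either level stands beside these counts. Over all of those genes, 6.27% were higher and 5.81% lower at that p, and 1.08% rose.

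Library by library, the APOE-KO samples were above the wildtype median in 28 to 37 of 38 members (73.7% to 97.4%), where 48.6% to 50.8% of all tested genes were. The wildtype libraries were above their own median in 13 to 23 members. APOE-KO samples were above all 6 wildtype libraries in 10 to 22 members (26.3% to 57.9%), where 11.6% to 20.1% of all tested genes were. The mean log2 CPM of the members was 4.40 to 4.84 in wildtype and 5.00 to 5.49 in APOE-KO. APOE-KO library 3 was the highest APOE-KO library in 13 members and APOE-KO library 2 the lowest in 15. Among wildtype libraries, library 3 was lowest in 13 members, and it was also the deepest, with the smallest Rn45s share. The spread within a genotype, as the median SD of log2 CPM, was 0.43 in wildtype and 0.40 in APOE-KO for the members and 0.41 and 0.37 for all tested genes, and 18 of 38 members varied more in APOE-KO than in wildtype. The first component of the members' within-genotype deviations held 33.9% of their variance. That share was not computed for other genes, so it does not show whether members vary together more than other genes.

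**Figure D3:**
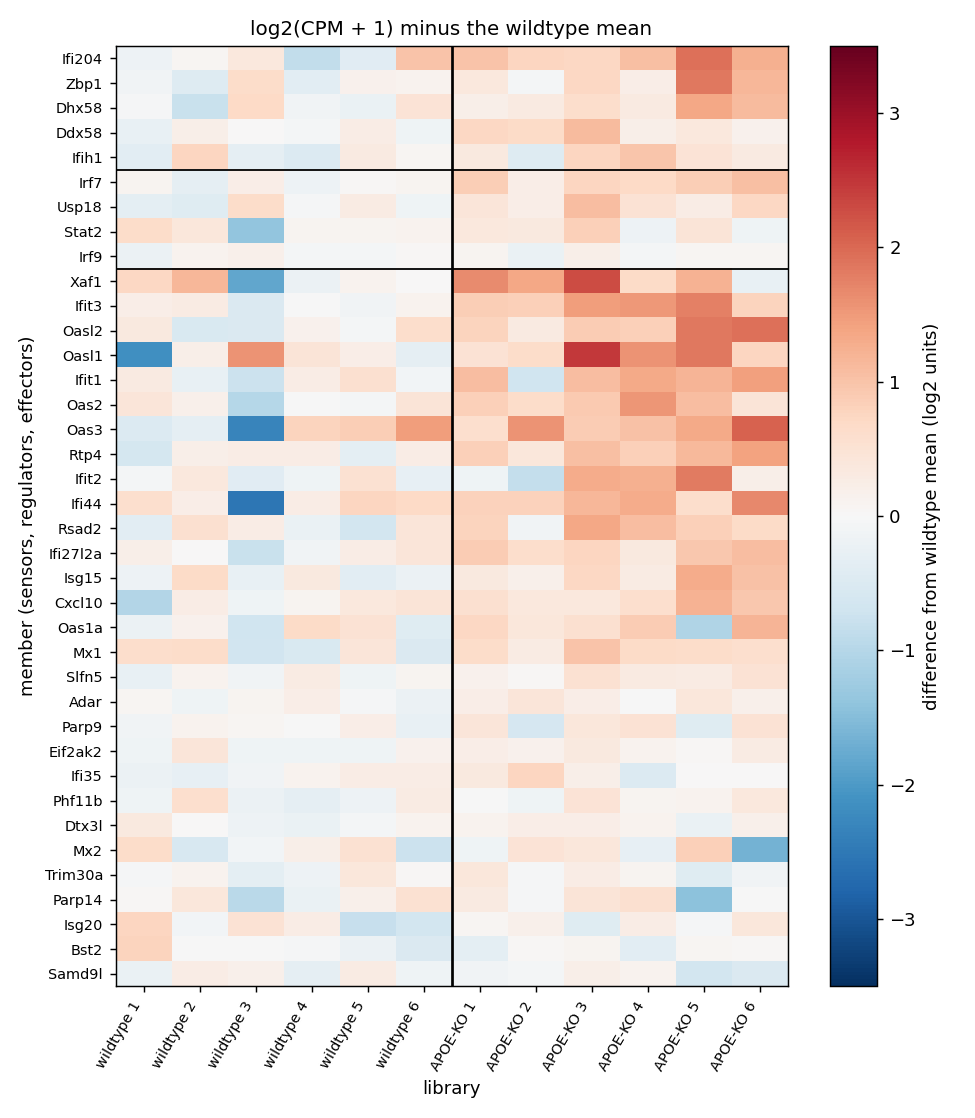
Each member (rows, split into sensors, regulators and effectors) in each library (columns), as log2(CPM + 1) minus the mean of the wildtype libraries; red is above and blue below that mean. Red fills most of the APOE-KO columns in the upper rows of each block, APOE-KO library 2 is paler, and the lowest rows (Isg20, Bst2, Samd9l) show no such side.

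The lists of ligands, of receptor and JAK-STAT genes and of genes tied to the induction of interferon, which do not hold the member Irf7, had 0 genes past the test. Only 1, 9 and 16 of their genes were tested. Over all tested genes 1.08% rose and 0.411% fell, so a count of 0 in lists this short is near that share. Of 21 interferon ligand genes, 20 had 0 reads in all 12 libraries (all listed alpha, beta, kappa, epsilon, zeta and lambda genes), where 3 reads in 1 library stand for 0.525 to 1.59 CPM. How counting treated reads that match several genes is not given, and sequence shared among the ligand genes was not looked up. Ifng, the type II interferon, had 6.12 ± 5.45 and 4.86 ± 3.95 CPM (adjusted p = 0.887). Of 9 receptor and JAK-STAT genes none passed, with Ifnar1 at 143 ± 27.8 and 130 ± 23.6 CPM and Ifnar2 at 156 ± 19.2 and 153 ± 14.8 CPM (adjusted p = 0.815 and 0.974). At an unadjusted p under 0.05, 0 of those 9 were higher or lower, where 6.27% and 5.81% of all genes were.

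Of 16 tested genes listed for the induction of interferon, such as Mavs, Tbk1, Irf3 and Tlr7, 0 passed. At an unadjusted p under 0.05, 1 was higher and 3 were lower, Irf8, Irf2 and Tlr3. Irf8 is also 1 of the plasmacytoid dendritic cell markers given below. Of 9 brakes, among them Socs1 and Socs3, 0 passed, with 2 higher (1 is Usp18, also a member) and 2 lower at that p. Of 17 tested genes of the interferon gamma response, 1 rose, Cd274, which encodes PD-L1 (37.3 ± 9.45 to 67.7 ± 18.2 CPM, 1.84-fold, adjusted p = 0.0213). At an unadjusted p under 0.05, 7 of the 17 were higher, Cxcl10 (also a member) among them, and 1 lower. Gbp2, a GTPase, had 50.4 ± 14.4 and 74.8 ± 13.3 CPM (adjusted p = 0.161), and Psmb8, an immunoproteasome subunit, had 507 ± 22.1 and 593 ± 20.6 CPM with no overlap (adjusted p = 0.358). Cxcl9, a chemokine, had 225 ± 38.7 and 239 ± 31.1 CPM (adjusted p = 0.872). The median log2 fold change was 0.25 over that list and -0.02 over the receptor list. Some genes stand on more than 1 of these lists, so the counts of the lists are not separate.

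Some markers of other cells changed as well. Over all tested genes, 0.411% fell and 5.81% were lower at an unadjusted p under 0.05, and the counts of this paragraph stand beside those shares. Of 15 plasmacytoid dendritic cell markers, 5 fell (Siglech, Klk1, Cox6a2, Runx2 and Cd209d), 12 were lower at an unadjusted p under 0.05 and 0 rose. Without Bst2 their sum was 2996 to 6012 CPM in wildtype and 2307 to 3247 CPM in APOE-KO. Siglech, their lectin, had 302 ± 187 and 136 ± 25.2 CPM (adjusted p = 0.0133). All 15 were detected in both genotypes. Of 6 tested epithelial markers of 11, Cdh1 fell and 5 were lower at an unadjusted p under 0.05, with a median log2 fold change of -1.68. The summed level of all 11 was 76.8 to 130 CPM in wildtype and 8.90 to 93.8 CPM in APOE-KO. APOE-KO library 4 was the high one, at 93.8 CPM, and Esrp1 was at 0 reads in all APOE-KO libraries with 53 over wildtype. The covariate fits that follow hold markers that shift with genotype, so the part of either marker list and that of the genotype cannot be told apart. With the mean of the plasmacytoid markers as a covariate, 0 members passed, and the median SE over members went from 0.23 to 0.35. The log2 fold changes of Ifit3, Irf7, Oasl2 and Ifi27l2a were 1.505, 0.72, 1.18 and 0.76, while Rtp4 went from 0.97 to 0.54. With the mean of the epithelial markers instead, 0 passed, and the median SE was 0.39. The log2 fold changes of Ifit3, Irf7 and Rtp4 were 1.46, 0.73 and 0.90, while Oasl2 went to 0.52 and Ifi27l2a to 0.31.

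**Figure D4:**
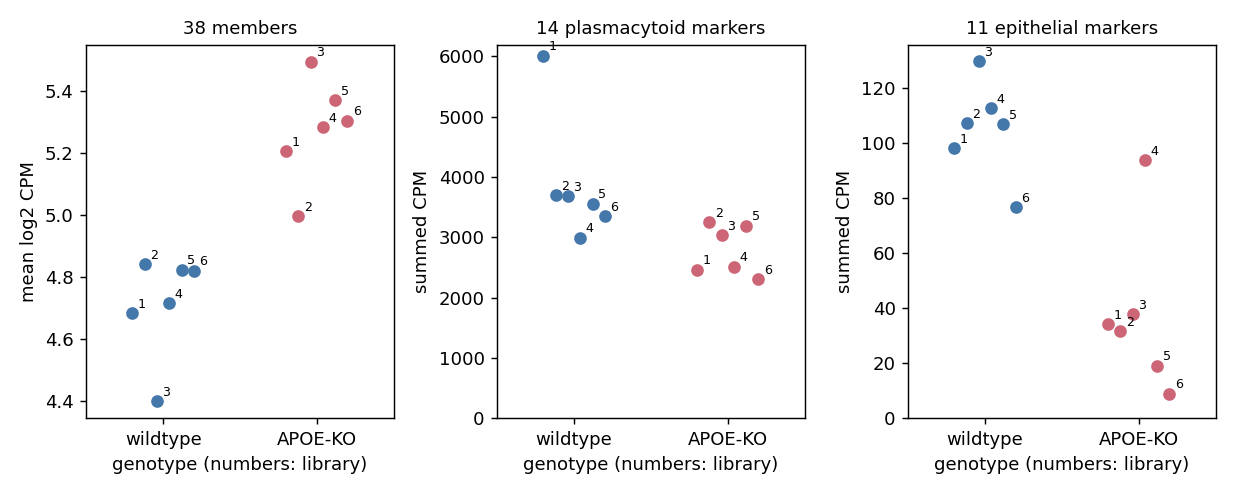
Mean log2 CPM of the 38 members and summed CPM of the 14 plasmacytoid markers (Bst2 left out) and 11 epithelial markers, 1 point per library with its number. Wildtype library 1 stands out among plasmacytoid sums at 6012 CPM, and APOE-KO library 4, at 93.8 CPM, is the APOE-KO library with an epithelial sum like that of wildtype.

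Leaving out 1 library at a time, Ifit3 and Irf7 passed in all 12 fits, with adjusted p up to 0.0205 and 0.0383. Rtp4 passed in 9, Ifi27l2a in 8 and Oasl2 in 5. The number of members that rose was 2 to 7 in those fits. It was 2 without APOE-KO library 3 or 6, 3 without wildtype library 4 or 5, and 7 without APOE-KO library 2. Without wildtype libraries 1 and 3 and APOE-KO library 5 together, a set chosen after seeing the data, Ifit3, Irf7 and Ifi27l2a passed.

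**Figure D5:**
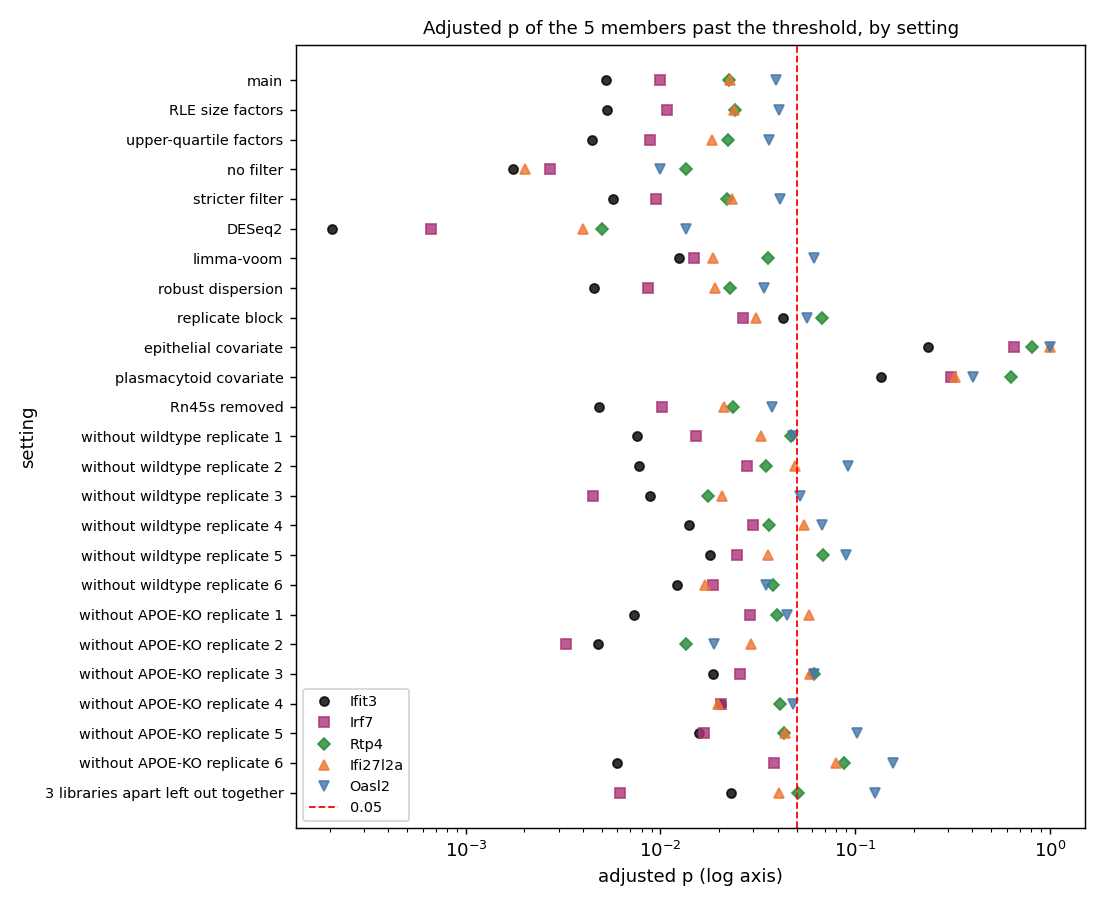
Adjusted p (log axis) of the 5 members that rose, under each fit named on the vertical axis; the dashed line is 0.05. Ifit3 and Irf7 stay left of the line in all fits but those with a marker covariate, while Oasl2 crosses it in 7 of the 12 fits that leave out 1 library.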

How the data were processed

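RNA was sequenced from the 3' end (Lexogen FWD, per the labels' protocols). The deposited values are raw whole-number counts per gene symbol, not normalised, in 12 libraries. STAR 2.7.8a, featureCounts 1.5.1, R 4.1.0, DESeq2 1.4 and build mm10 come from the submitters' processing notes. Which annotation, strand setting and multi-mapping rule applied was not given in the sources used here. Groups follow the short descriptions in the labels.

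The analysis ran edgeR 4.0.16 under R 4.3.3 on the counts as deposited: filterByExpr (minimum count 10, total 15), TMM factors, glmQLFit and glmQLFTest on genotype alone over all 12 libraries. The SE is the fitted log2 fold change over the square root of F. Log2 CPM used a prior count of 2. The biological coefficient of variation was 30.1%. An exact permutation test of single members, foreseen for spreads that the fit would not show, was not run, since the values of the libraries are given. The code was tested on simulated counts. Alternatives were other size factors and filters, DESeq2 1.42.0, limma 3.58.1 (voom), robust dispersion, a replicate block, marker covariates, removal of Rn45s, and fits leaving out libraries. Positions and exon overlaps come from GENCODE (GRCm38): 11 members overlap an exon on the other strand and 3 on the same strand (Rtp4, Irf9 and Parp14).

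The members, lists and tests were chosen with earlier results of these data known. Per-library values are given for members with an adjusted p under 0.05 and the next 8 by p. Genes of other lists are named where they passed or illustrate a list, the latter (Mavs, Tbk1, Irf3, Tlr7, Irf8, Irf2, Tlr3, Socs1, Socs3, Cxcl9, Gbp2, Psmb8, Ifng, Esrp1) chosen after their values were seen. The level of 1 gene that the rule would name is not reported here.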

Additional observations from a re-analysis of the deposited data

Results flagged for a closer look

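Among the 38 members in 6 libraries of each genotype, 76 groups in all, 5 held a library far from the other 5, by Dixon's gap criterion. Chance alone flags about 1 group in 20. APOE-KO library 2 had 3.96 CPM of Ifit1, the others 16.0 to 21.0 CPM. Wildtype library 3 had 1.22 CPM of Ifi44, the others 14.3 to 20.6 CPM. Wildtype library 1 had 662 CPM of Bst2, the others 272 to 387 CPM. APOE-KO library 5 had 42.3 CPM of Ifi204, the others 17.8 to 25.6 CPM, and 95.3 CPM of Dtx3l, the others 122 to 134 CPM.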

How the results depend on the processing

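Ifit3 and Irf7 kept their call in 22 of 24 other fits (with RLE size factors, upper-quartile factors, no filter, a stricter filter, DESeq2, limma-voom, robust dispersion, a replicate block, Rn45s removed, each library left out, and 3 libraries left out together) and lost it with either marker covariate. Main counts were 5 members higher and 0 lower, and 116 and 44 of all genes. With the replicate block the counts were 3 members and 70 genes higher, as Rtp4 (adjusted p = 0.068) and Oasl2 (0.0565) lost their calls. With limma-voom 4 members passed, as Oasl2 (0.0614) lost its call. With no filter and with DESeq2 7 members passed, the 5 and Rsad2 and Ifi204. Same-numbered libraries correlated by -0.08 to 0.02 in their deviations, so the numbers gave no sign of pairing. With the epithelial covariate 0 members, 17 genes higher and 7 lower passed, and with the plasmacytoid covariate 0, 10 and 5. DESeq2 gave 182 and 91 genes, and no filter gave 68 lower genes. Leaving out wildtype libraries 1 and 3 and APOE-KO library 5 together, chosen after seeing the data, left 3 members. Leaving out 1 library gave 2 to 7 members higher and 0 lower, 72 to 166 genes higher and 27 to 64 lower. The lower genes numbered 27 without wildtype library 5 or APOE-KO library 3 and 29 without APOE-KO library 6. The median log2 fold change of members stayed between 0.48 and 0.63 over these fits, and 32 to 36 members were positive.

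Signs turned in 11 members that did not pass in the main test. Mx2 had -0.24 with limma-voom, -0.088 with the replicate block, -0.36 with the epithelial covariate, -0.067 without the 3 libraries and -0.20 to 0.27 when 1 library was left out. Isg20 had -0.00411 with RLE size factors, -0.000333 with DESeq2, -0.10 with the epithelial covariate and -0.16 to 0.19 without 1 library. Parp14 had -0.017 with the block, -0.41 with the plasmacytoid covariate and -0.11 to 0.21 without 1 library. Bst2 had 0.48 with the plasmacytoid covariate, 0.084 without the 3 libraries and -0.21 to 0.077 without 1. Trim30a had -0.069 with the plasmacytoid covariate and -0.047 to 0.13 without 1 library, Irf9 -0.082 and -0.017 to 0.069. Oas1a (-0.24) and Parp9 (-0.16) turned with the plasmacytoid covariate, and Stat2 (-0.18), Ifi35 (-0.24) and Samd9l (0.23) with the epithelial one. The cause was not tested.

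Depth limits the lowest members: Xaf1, Oas2, Isg20 and Mx2 had 57 to 199 reads per genotype. The floor of 3 reads covers counting error only.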
